A study of Mus musculus with 10 samples.

Results

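The comparison is between the wild-type RNA-seq libraries of the series, libraries 3 and 4 against libraries 1 and 2, across all 21868 genes of the count table. The split was chosen from the counts themselves. Libraries 1 and 2 were almost as alike as repeat counts of 1 sample would be, and so were libraries 3 and 4, so each pair was summed and treated as 1 sample, called WT A (libraries 1 and 2) and WT B (libraries 3 and 4). With 1 sample on each side and a split taken from the values, every difference given here is a description without a test. Of the 10 samples of the series, 4 enter the comparison, and the 4 Ldb1-deficient libraries (KO A, libraries 1 and 2, and KO B, libraries 3 and 4) are given as reference levels only.

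The study sorted mouse cells for Flk1, the VEGF receptor encoded by Kdr, from embryoid bodies, the clusters formed by embryonic stem (ES) cells as they differentiate. The labels call these cells equivalent to the hemangioblast, a progenitor of blood and endothelium. WT cells carried both copies of Ldb1 (Ldb1+/+) and KO cells carried none (Ldb1-/-). Ldb1 encodes an adaptor protein that joins transcription factors into complexes, and no other allele or agent is named for these groups. The sources used here do not give the day on which cells were taken for RNA, and the ChIP libraries of the series came from day 4. Nothing in the labels says whether WT A and WT B were separate cultures, differentiations or ES cell clones, so these cannot be told apart.

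During gastrulation, epiblast cells leave the pluripotent state, pass through the primitive streak and become mesoderm, under Wnt, Nodal, FGF and BMP signals. T-box factors such as Eomes and T and the factor Mesp1 mark streak and early mesoderm, while Hand1, Hand2 and Gata4 mark lateral plate and cardiac mesoderm. Pluripotent cells transcribe Pou5f1, Nanog and Esrrb, and ES cells also transcribe a set of germline genes that are silenced by promoter DNA methylation in somatic cells.

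The promoters of 3 genes with large differences are printed, from RefSeq on GRCm38.p6, each running from 250 bases before to 50 bases after the annotated start. Evx1, a homeobox gene of the posterior primitive streak, stood 40.5-fold higher in WT B, and its promoter (chr6:52313248-52313547, plus strand) holds the octamer ATGCAAAT, the sequence bound by POU factors such as Pou5f1, on the reverse strand and starting 126 bases before the gene's start; capitals mark it. Mesp1 stood 72.3-fold higher in WT B, and its promoter (chr7:79793541-79793840, minus strand) holds the T-box sequence TCACACCT, in capitals. Dazl, an RNA-binding protein of germ cells, stood 16.3-fold higher in WT A, and capitals mark the 28 CpG dinucleotides of its promoter (chr17:50293571-50293870, minus strand).
Evx1: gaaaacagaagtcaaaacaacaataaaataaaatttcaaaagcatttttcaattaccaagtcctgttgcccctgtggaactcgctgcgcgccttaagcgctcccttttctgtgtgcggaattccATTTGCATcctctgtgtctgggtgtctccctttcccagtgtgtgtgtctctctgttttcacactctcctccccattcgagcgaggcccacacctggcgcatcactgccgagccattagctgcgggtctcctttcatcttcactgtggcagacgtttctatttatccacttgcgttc
Mesp1: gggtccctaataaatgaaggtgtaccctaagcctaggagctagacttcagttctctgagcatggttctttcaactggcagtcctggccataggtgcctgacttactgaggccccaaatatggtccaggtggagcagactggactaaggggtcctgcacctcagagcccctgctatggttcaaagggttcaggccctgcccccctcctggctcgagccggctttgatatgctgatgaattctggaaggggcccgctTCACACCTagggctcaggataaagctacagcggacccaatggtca
Dazl: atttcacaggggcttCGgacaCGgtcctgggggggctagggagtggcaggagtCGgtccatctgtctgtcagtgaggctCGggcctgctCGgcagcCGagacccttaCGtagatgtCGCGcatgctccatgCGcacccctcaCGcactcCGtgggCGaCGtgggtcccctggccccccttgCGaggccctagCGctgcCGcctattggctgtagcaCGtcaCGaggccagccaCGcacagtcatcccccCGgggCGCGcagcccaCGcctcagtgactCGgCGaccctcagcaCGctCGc

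Levels are counts per 1000000 reads (CPM) after scaling by the trimmed mean of M-values (TMM). A log2 difference is WT B minus WT A on summed counts with a prior count of 2, and a fold is the depth-scaled ratio of the summed counts with an exact binomial 95% interval. Such intervals cover counting error only and not the spread between cultures. Of the 21868 genes, 15716 reached 1 CPM in WT A or WT B and were compared. Among these, 389 reached 1 CPM only in WT B and 544 only in WT A, so their direction followed from the filter. A gene was counted as higher or lower in WT B when the difference was at least 2-fold and both libraries 3 and 4 lay on the same side of both libraries 1 and 2.

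By this rule 579 genes (3.68% of those compared) stood at least 2-fold higher in WT B and 932 (5.93%) at least 2-fold lower, together 1511 (9.61%). At 4-fold the counts were 181 (1.15%) and 317 (2.02%), together 3.17%, and at 8-fold they were 81 (0.515%) and 101 (0.643%), together 1.16%. At any size, the libraries of WT A and WT B did not overlap at 11876 genes (75.6%). With 2 libraries on each side, sampling noise alone also separates many genes, so this is not the share of genes that differ. Most genes differed little. Over all compared genes, the median log2 difference was -0.0019, the quartiles were -0.26 and 0.22, and 79.6% lay within 1.5-fold. Just inside the 2-fold limit were Arsi at a log2 difference of 1.0021 and Syt9 at -1.0022, and just outside it were Prelid2 at -0.9998, Hmcn1 at -0.9991 and Fam208a at -0.9980. Only 1 gene passed 2-fold with overlapping libraries.

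The differences between the samples were far above those within them. Library 2 differed from library 1 by 2-fold at 86 genes (0.547%), and library 4 from library 3 at 95 genes (0.604%). The chi-square statistic per gene, for which sampling noise gives a mean of 1, averaged 1.10 between libraries 1 and 2 and 1.07 between libraries 3 and 4. Across WT A and WT B it averaged 28.04 to 28.46. Total counts were 11494938 and 11687613 in libraries 1 and 2 and 13006763 and 13214733 in libraries 3 and 4. The WT libraries were alike in the share of reads from the 50 most abundant genes (11.6% to 11.7%), from histone genes (0.252% to 0.261%) and from ribosomal protein genes (7.95% to 8.03%). The ratio was not the same at all levels: of the 3929 genes with the lowest levels, 13.7% were lower in WT B and 7.28% higher, against 1.83% and 1.09% of the 3929 with the highest levels. By transcript length, 7.48% of the 3929 shortest were lower in WT B and 2.72% higher, against 4.02% and 4.63% of the 3929 longest, and the part of length in the differences was not tested.

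**Figure D1:**
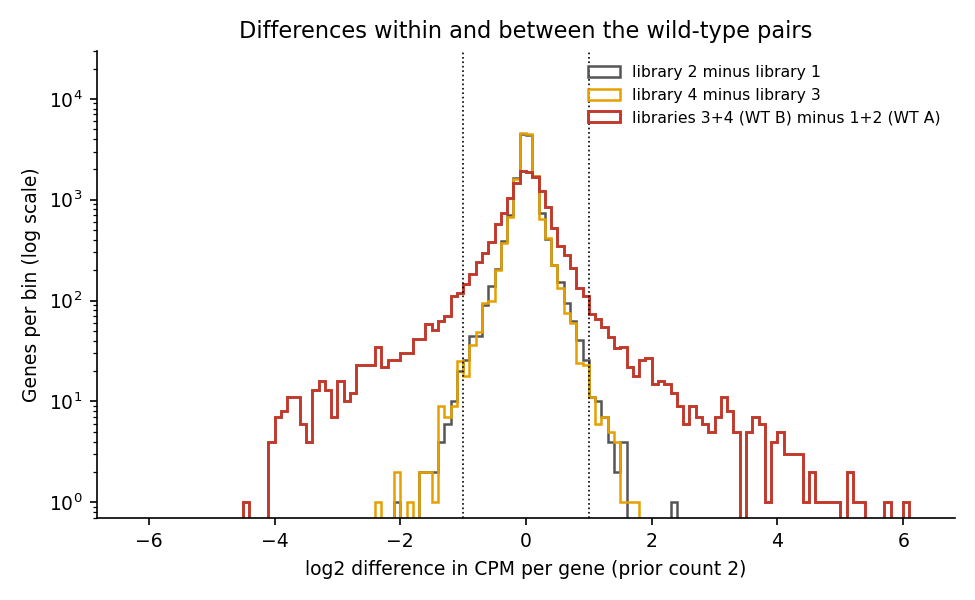
The plot shows the distribution of log2 differences (x axis) over the compared genes (y axis) for the pair of libraries within WT A, the pair within WT B, and WT B against WT A. The difference between the samples has wider tails on both sides than either pair of libraries, of which 86 and 95 genes passed 2-fold.

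**Figure D2:**
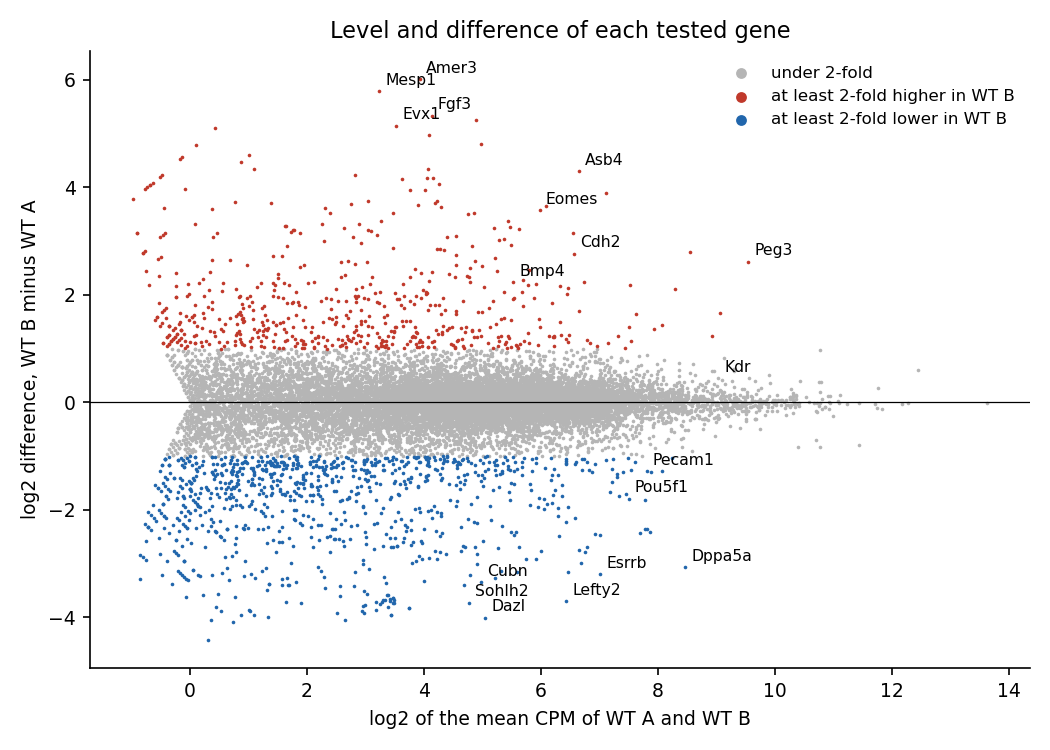
Each point is 1 gene, with its mean level in WT A and WT B (log2 CPM, x axis) against its log2 difference, WT B minus WT A (y axis), and genes at least 2-fold apart are coloured. The 579 higher and 932 lower genes take a larger share of the genes at low levels than at high levels, and Peg3 is the most abundant of those labelled as higher.

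The given markers took opposite sides. Eomes, a T-box factor of the streak and early mesoderm, was at 8.63 and 10.7 CPM in libraries 1 and 2 and at 116 and 117 CPM in libraries 3 and 4. Its fold was 12.1 (95% interval 10.5 to 13.9). KO A was at 27.8 CPM and KO B at 8.89 CPM, both below WT B. Evx1 was at 0.691 and 0.424 CPM in WT A and at 22.9 and 22.1 CPM in WT B, a fold of 40.5 (23.5 to 76.5). Hand1, a basic helix-loop-helix factor of lateral mesoderm and trophoblast, was at 10.9 and 8.99 CPM against 119.6 and 132 CPM, a fold of 12.7 (11.1 to 14.6). For all of Eomes, Evx1 and Hand1 the WT B libraries stood above every other library, and both KO samples were closer to WT A. In the other direction, Dppa5a, an RNA-binding protein of pluripotent cells, was at 633 and 630.03 CPM in WT A and at 77.2 and 73.2 CPM in WT B. It was 8.41-fold higher in WT A (8.02 to 8.81), with KO A at 209 CPM and KO B at 354 CPM in between. Dazl was at 62.6 and 62.1 CPM against 4.11 and 3.53 CPM, 16.3-fold higher in WT A (13.3 to 20.2). Its KO levels of 5.53 and 5.94 CPM lay near WT B. These markers were chosen for this contrast, so their directions support nothing.

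**Figure D3:**
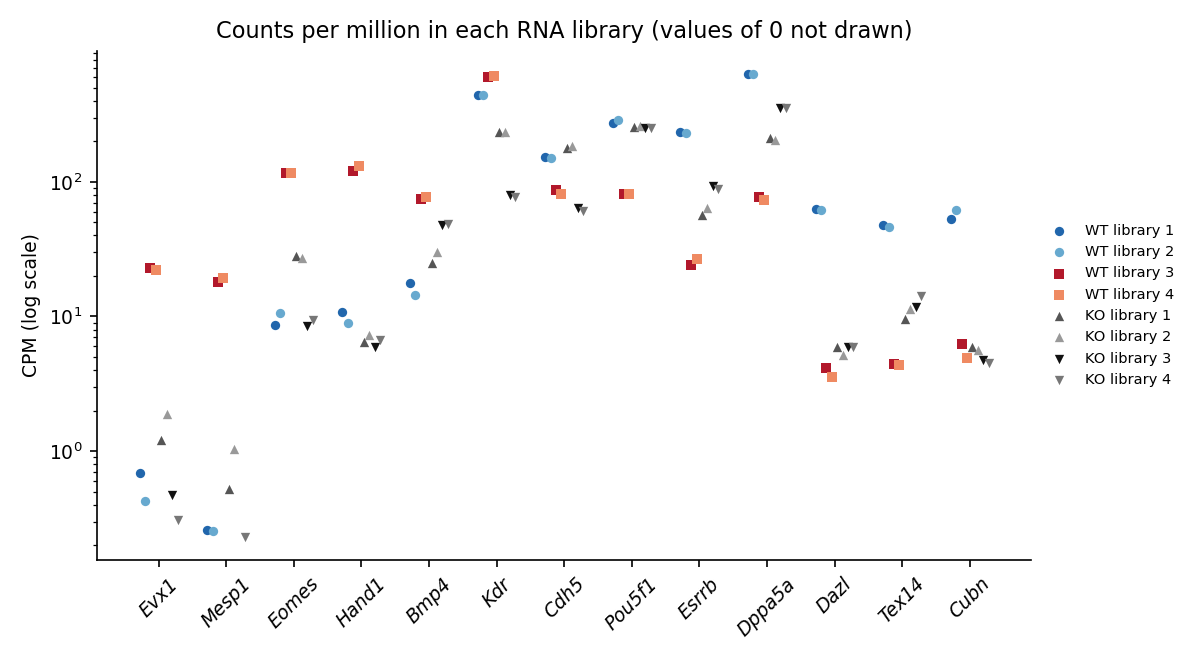
Points show the level of selected genes (CPM, log axis) in each of the 8 RNA libraries, by sample; a library with 0 reads is not drawn. The WT libraries of a pair nearly coincide, and WT A and WT B do not overlap for the given markers.

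Genes were grouped in lists of pathways and cell types (28 lists with 598 entries, of which 583 matched the table), and the lists share members. The lists were drawn up with earlier results of these data known, so counts of their members are descriptions only. The given markers are also list members. Without them the streak list had 10 of 14 higher (median 2.34), the cardiac list 15 of 23 higher (2.06), the naive list 13 of 19 lower (-2.06) and the germline list 27 of 32 lower (-2.67). Factors of the primitive streak stood higher in WT B as a group. Of 16 measured members of the streak list, 12 were higher and 0 lower, with a median log2 difference of 2.79 against -0.0019 over all genes. The list has 21 entries, and 5 of the 16 were under 1 CPM in WT A, so these passed the filter through WT B alone. Mesp1, a factor of the earliest cardiovascular mesoderm, was at 0.259 and 0.254 CPM in WT A and at 17.9 and 19.2 CPM in WT B, a fold of 72.3 (33.0 to 198). T, the T-box factor brachyury, was at 1.04 and 0.763 CPM against 11.5 and 13.7 CPM, a fold of 14.0 (9.04 to 23.0). Both genes were nearly silent in WT A and clearly read in both WT B libraries. Mixl1, a homeobox gene of the streak, was at 1.64 and 1.44 CPM against 15.1 and 14.9 CPM. Lhx1, a LIM homeobox factor of early mesoderm whose protein can bind Ldb1, was at 19.4 and 20.2 CPM against 87.7 and 92.0 CPM, a fold of 4.54 (4.11 to 5.02). Streak members that were not apart by 2-fold included Nodal, the ligand that patterns the streak, at 15.8 and 17.2 CPM against 9.90 and 8.03 CPM. Both WT A libraries lay above both WT B libraries there.

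Genes of lateral plate and cardiac mesoderm were the other large group on the WT B side, with 16 of 24 measured members higher, 0 lower and a median log2 difference of 2.10; 3 of the 24 were under 1 CPM in WT A. Hand2, the paralogue of Hand1, was at 0.691 and 1.27 CPM in WT A and at 33.6 and 32.9 CPM in WT B, a fold of 33.8 (22.4 to 53.5). Gata4, a zinc finger factor of heart and endoderm, was at 9.76 and 9.25 CPM against 92.5 and 87.5 CPM, a fold of 9.47 (8.25 to 10.9). The WT B libraries exceeded WT A by a wide margin at both genes. Foxf1, a forkhead factor of splanchnic mesoderm, was at 0.0863 and 0.0848 CPM against 4.04 and 3.90 CPM. In WT A this rested on few reads, and its fold of 46.4 had an interval of 12.5 to 388. Tbx2, Tbx20 and Isl1, transcription factors of the developing heart, had log2 differences of 3.71, 2.06 and 1.95. Mef2c at -0.49 and Gata5 at -0.13 did not join them. Of these lists, Bmp4, Msx1 and Msx2 stand in both the cardiac and the BMP list. The cardiac list also shares Gata4 with the endoderm list, Hand1 with the trophoblast list and Tbx3 with the naive pluripotency list. Of 13 paraxial mesoderm genes 6 were higher and 1 lower, with a median of 0.69, and 3 were under 1 CPM in WT A. Cyp26a1, a retinoic acid hydroxylase, was at 10.1 and 9.84 CPM against 65.5 and 64.0 CPM, while Tcf15 had a log2 difference of -1.44.

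The signalling lists were mixed. Among BMP genes 11 of 22 were higher and 2 lower, with a median of 1.09. The ligand Bmp4 was at 17.8 and 14.3 CPM in WT A and at 75.02 and 77.7 CPM in WT B, a fold of 4.76 (4.26 to 5.33), and Bmp2 was at 20.5 and 22.7 CPM against 98.6 and 100.8 CPM. The target genes Msx1 and Msx2 had folds of 7.34 and 12.7, and Bmper, a secreted BMP regulator, had a fold of 13.2 (9.88 to 18.0). The receptor Bmpr1b and the inhibitor Id4 were lower, at log2 differences of -1.65 and -1.18. Ligands, targets and secreted regulators thus made up most of the BMP genes higher in WT B, while the receptors Bmpr1a (0.52) and Bmpr2 (0.34) differed by less than 2-fold.

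Among Wnt genes 11 of 29 were higher and 0 lower, with a median of 0.78; 3 of the 29 were under 1 CPM in WT A and passed through WT B alone. The ligand Wnt3, needed for streak formation, was at 1.90 and 3.14 CPM against 33.7 and 36.5 CPM, a fold of 13.9 (10.7 to 18.4). The feedback inhibitor Dkk1 had a fold of 14.4 (9.63 to 22.5), and Axin2, a common readout of Wnt signalling, was at 8.72 and 8.14 CPM against 32.1 and 27.9 CPM. Ctnnb1, which encodes beta-catenin, stood at nearly the same level in all 4 libraries, with a log2 difference of -0.03. FGF genes went both ways, with 7 of 20 higher, 4 lower and a median of 0.45. Fgf3 was at 0.518 and 1.02 CPM against 33.0 and 35.6 CPM, a fold of 44.6 (28.03 to 75.5), while Fgf4, a ligand made by pluripotent cells, was at 73.0 and 71.5 CPM against 8.00 and 8.25 CPM, 8.89-fold higher in WT A (7.71 to 10.3). Fgf10 and Fgf15 had log2 differences of 3.38 and 4.16 in the direction of Fgf3. The ligands of this family therefore stood on both sides.

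In the Nodal pathway 3 of 19 genes were higher and 4 lower. The Nodal inhibitor Lefty2 was at 160.2 and 160.7 CPM in WT A and at 12.9 and 11.9 CPM in WT B, 13.0-fold higher in WT A (11.6 to 14.6), and Lefty1 was 9.34-fold higher there (7.83 to 11.2). Cer1, another secreted Nodal inhibitor, had the opposite difference, at 4.23 and 4.50 CPM against 20.3 and 20.8 CPM. Cfc1, a Nodal co-receptor that is not on the list, was at 0.950 and 1.95 CPM against 59.3 and 57.3 CPM, a fold of 40.1 (28.5 to 58.1). Its relative Tdgf1 had a log2 difference of -0.12. The secreted inhibitors of the pathway thus stood on both sides.

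Other genes with the largest differences on the WT B side were of several kinds. Amer3, a member of a family of Wnt regulators, was at 0.345 and 0.424 CPM in WT A and at 30.0 and 30.3 CPM in WT B, the largest difference of the named genes at a fold of 78.3 (41.0 to 172). On chromosome 1 the promoter windows of Cfc1, Prss40 and Amer3, all higher in WT B, start at 34535398, 34560894 and 34579443. These neighbours may not be separate observations, which was not tested. Prdm6, a PR-domain factor, was at 1.90 and 2.29 CPM against 62.1 and 59.6 CPM, and Asb4, an ankyrin repeat and SOCS box protein, was at 9.41 and 9.76 CPM against 188.5 and 193.8 CPM. Of the epithelial to mesenchymal transition genes 6 of 23 were higher and 1 lower, with a median of 0.39. The cadherins differed unequally. Cdh2 (N-cadherin) was at 23.7 and 24.5 CPM against 161.7 and 167.8 CPM, a fold of 6.83 (6.25 to 7.47), while Cdh1 (E-cadherin) was at 612 and 608 CPM against 399 and 394 CPM, a log2 difference of -0.62. Snai1, a repressor of Cdh1 and a member of the streak list too, had a fold of 11.97 (8.67 to 16.9).

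Pluripotency genes stood higher in WT A. In the core list 9 of 15 genes were lower in WT B and 0 higher, with a median log2 difference of -1.52, and in the naive list 14 of 20 were lower and 1, Tbx3, higher, with a median of -2.23. Pou5f1, the POU factor Oct4, was at 274.8 and 287.9 CPM in WT A and at 81.6 and 81.2 CPM in WT B, 3.46-fold higher in WT A (3.29 to 3.63). Nanog was at 267.6 and 266.8 CPM against 125.4 and 122.2 CPM, 2.16-fold higher in WT A (2.07 to 2.25). Esrrb, an orphan nuclear receptor of naive cells, was at 234.8 and 230.06 CPM against 23.9 and 26.6 CPM, 9.20-fold higher in WT A (8.49 to 9.99). No library of WT B reached a WT A library at these genes. Other members did not follow, with log2 differences of 0.39 for Sall4, 0.74 for Lin28a and 0.08 for Stat3. Genes of the primed epiblast state showed little shift, with 1 of 14 higher, 2 lower and a median of -0.12. Otx2, Dnmt3a and Dnmt3b had log2 differences between -0.11 and 0.20.

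The summed level of the naive list was 2286 to 2302 CPM in WT A and 732 to 735 CPM in WT B. Without the given marker Dppa5a it was 1656 to 1669 CPM and 655 to 662 CPM. In bulk samples, fewer cells of a type and less RNA per cell cannot be told apart, so whether the Flk1 sort held different shares of pluripotent cells was not tested. Kdr, the gene for the sort marker, was at 439 and 442 CPM in WT A and at 602 and 609 CPM in WT B, and as the basis of the sort its level is no finding. Ldb1 was at 104 to 116 CPM in the 4 WT libraries, and the KO samples stood at 96.0 and 79.7 CPM; the sources used here do not give the deleted part of the gene, so this level checks no label.

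Germline genes had the largest share in 1 direction of the gene lists (84.8% lower in WT B, against 5.93% of all compared genes). This rank supports nothing, as the list was drawn up with earlier results of these data known. Of 33 measured members 28 were lower in WT B and 0 higher, all 33 differences were below 0, and the median was -2.68. Of the 33, 9 were under 1 CPM in WT B and passed the filter through WT A alone, so their direction followed from it. Sohlh2, a helix-loop-helix factor of germ cell development that is not on the list, was at 48.8 and 52.9 CPM in WT A and at 3.81 and 3.75 CPM in WT B, 13.5-fold higher in WT A (10.97 to 16.7). Tex14, a protein of germ cell bridges, was at 48.2 and 45.8 CPM against 4.42 and 4.35 CPM, 10.7-fold higher in WT A (8.84 to 13.1). Smc1b, a meiotic cohesin subunit, was at 88.9 and 85.8 CPM against 10.4 and 9.004 CPM. Asz1, a protein of the piRNA pathway, had 1 read in library 3 and 0 in library 4, and its 64.5-fold difference had an interval of 11.1 to 2593. Members that differed by less than 2-fold were Dnd1, Brdt, Sycp1, D1Pas1 and Tdrd1. Zfp42 and Dppa3 are on both this list and the naive list, and Tuba3a and Tuba3b are near-identical copies whose reads may be shared. Of the DNA methylation genes, Dnmt3l, a regulator of the methyltransferases, was at 33.9 and 32.7 CPM against 5.56 and 6.75 CPM, 5.41-fold higher in WT A (4.56 to 6.45), and Tet1 was 2.72-fold higher (2.36 to 3.14). Dnmt1, Dnmt3a, Dnmt3b and Uhrf1 had log2 differences between -0.12 and 0.20.

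Of the genes with the most negative differences, many lay on the X chromosome. There, 84 of 587 compared genes (14.3%) were lower in WT B and 32 (5.45%) higher, and 35 of the 101 genes that were 8-fold lower were X-linked. Xlr5a, Xlr5b and Xlr5c, Dmrtc1c1 and Dmrtc1c2, Pramel3 with AV320801, and Fthl17e were 14.0-fold to 16.4-fold higher in WT A. These are multicopy genes whose reads may be shared, so they do not count as independent members. Over the 387 X-linked genes of at least 8 CPM the median log2 difference was 0.09, towards WT B and above the medians of the autosomes, which lay between -0.05 and 0.03. Of 9 compared Y-linked genes 3 were lower in WT B: Zfy1 and Zfy2, which share sequence, were 5.33-fold and 4.70-fold higher in WT A, and Uba1y was 2.11-fold higher (1.92 to 2.31). On the Y-linked list, which leaves out Uba1y, 7 of 8 differences were below 0 and the median was -0.57.

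Blood and endothelial genes, the fates for which the cells were sorted, had medians closer to 0 than the streak and pluripotency lists. Of 23 haematopoietic transcription factors 3 were higher, 0 lower, and the median was 0.18, or 0.07 without library 1. Etv2, an ETS factor at the head of the blood and endothelial programme, was at 6.22 and 6.53 CPM in WT A and at 18.5 CPM in both WT B libraries, a fold of 2.90 (2.41 to 3.51). Ikzf1 was at 3.11 and 2.71 CPM against 11.8 CPM in both, a fold of 4.05 (3.11 to 5.35). Tal1 had a log2 difference of 0.60 and Runx1 0.99, just under 2-fold. None of 16 blood surface and signalling genes passed 2-fold either way, and their median was -0.42. Over all compared genes 9.61% passed, so in a list this small that count is no finding. Of 17 erythroid genes 3 were higher, among them the embryonic globin Hbb-bh1 at 10.1 and 9.76 CPM against 20.3 and 20.4 CPM. Among 30 endothelial genes 9 were lower, 2 higher and 27 below 0, with a median of -0.58. Dll4, a Notch ligand, was at 20.4 and 18.9 CPM against 6.17 and 6.68 CPM, 3.06-fold higher in WT A (2.56 to 3.67). Cdh5, the endothelial cadherin, was at 153 and 150.3 CPM against 87.7 and 81.2 CPM. The 2 endothelial genes on the WT B side were Nrp1 and the apelin receptor gene Aplnr, which early mesoderm also expresses, the latter at 17.6 and 16.5 CPM against 94.6 and 95.1 CPM.

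Lists of other cell types that an embryoid body could hold gave no single direction. Of 24 endoderm genes 8 were higher and 3 lower, with a median of 0.19. Gata4, Gata6 and Foxa2 were on the WT B side. Cubn and Afp, markers of visceral endoderm, were on the WT A side (10.3-fold, and 11.6-fold with an interval of 5.62 to 27.8). Afp was at 0.302 CPM in WT B, so it passed the filter through WT A alone. Lrp2 and Apoe, abundant members of the list, did not pass 2-fold, with log2 differences of 0.19 and -0.16. None of 13 neuroectoderm genes passed 2-fold, and their median was -0.11, or 0.01 without library 1. Of 9 trophoblast genes 2 were higher and 1 lower, and those higher were Hand1 and Plac1, of which Plac1 was under 1 CPM in WT A. Of 26 cell cycle genes only Ccnd2 passed 2-fold, none of the 16 p53 target genes did, and of 22 hypoxia and glycolysis genes Pfkp and Pdk1 were lower. Over all compared genes 9.61% passed 2-fold either way. In lists this small, these low counts and that of the neuroectoderm list are therefore no finding. In the imprinted list 7 of 20 were higher and 0 lower: Peg3 was at 205 and 213 CPM against 1290.1 and 1289 CPM, a fold of 6.16 (5.98 to 6.35), and Dlk1, a Notch-related membrane protein, had a fold of 6.18 (4.53 to 8.62). Only 14 of 36 Hox genes found reached 1 CPM, and Hoxb2, Hoxb3 and Hoxd1 were higher. These 3 were under 1 CPM in WT A and passed the filter through WT B alone.

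**Figure D4:**
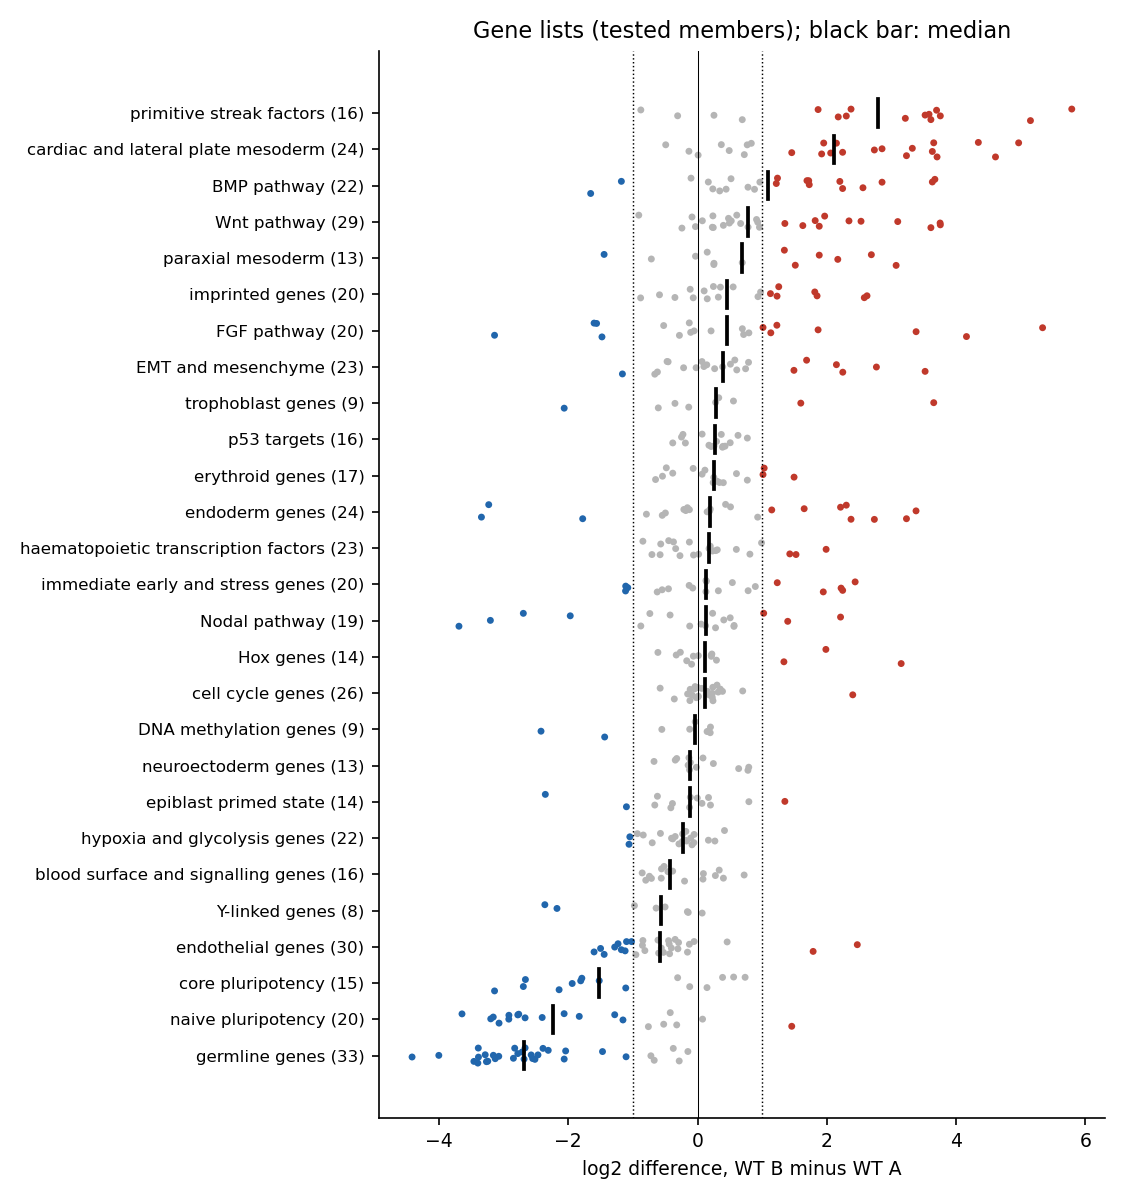
Each point is a gene on a list (rows), placed by its log2 difference, WT B minus WT A (x axis), and the bars mark list medians. The streak list median of 2.79 and the cardiac list median of 2.10 lie on one side, and the naive and germline medians of -2.23 and -2.68 on the other.

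The KO samples gave reference levels from libraries the split did not use, although KO A and KO B were also joined from near-technical pairs. Their difference was smaller, with 137 genes (0.872%) at least 2-fold higher in KO B and 222 (1.41%) lower, together 2.28%. Over the compared genes, the root mean square log2 distance was 0.719 between WT A and WT B, 0.397 between KO A and KO B and 0.632 to 0.752 between a WT and a KO sample. Of the 579 genes higher in WT B, both KO samples were nearer WT A at 316 and nearer WT B at 140. Of the 932 genes lower in WT B, both were nearer WT B at 469 and nearer WT A at 253. In each direction the larger count was of genes at which both KO samples lay nearer the lower WT level. These genes were chosen for a high level in 1 WT sample, and the filter could be passed through that sample alone. The larger counts therefore support nothing about the KO samples.

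The KO samples did not repeat the WT difference as a whole. Of the 579 genes higher in WT B, 61 (10.5%) were at least 2-fold lower in KO B than in KO A and 21 (3.63%) higher, with a median KO difference of -0.19. Of the 932 lower, 34 (3.65%) were higher and 30 (3.22%) lower in KO B, with a median of 0.07. Of the 12 streak genes higher in WT B, 10 were below KO A in KO B and 6 of them by 2-fold, as with T at 7.94 CPM in KO A and 1.44 CPM in KO B. All 30 endothelial genes stood below KO A in KO B, 12 of them by 2-fold, with a median of -0.92. These included the 9 that were lower in WT B and also Nrp1 and Aplnr, which were higher there. Of 20 immediate early and stress genes 5 were higher in WT B and 3 lower, with a median of 0.13. In KO B 18 of the 20 stood above KO A, with a median of 0.67. Of the 5 higher in WT B, 4 were also at least 2-fold higher in KO B, and of the 3 lower, Trib3 and Chac1 stood below KO A and Ier3 above it, none by 2-fold. Fos, an early response factor, was at 24.3 and 24.6 CPM in WT A, 93.4 and 95.3 CPM in WT B, 61.5 CPM in KO A and 212 CPM in KO B. Fosb, Egr1 and Egr2 were the others of the 4, and Myc was at 14.3 and 20.2 CPM in KO A and KO B. The labels do not tie WT A to KO A or WT B to KO B.

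**Figure D5:**
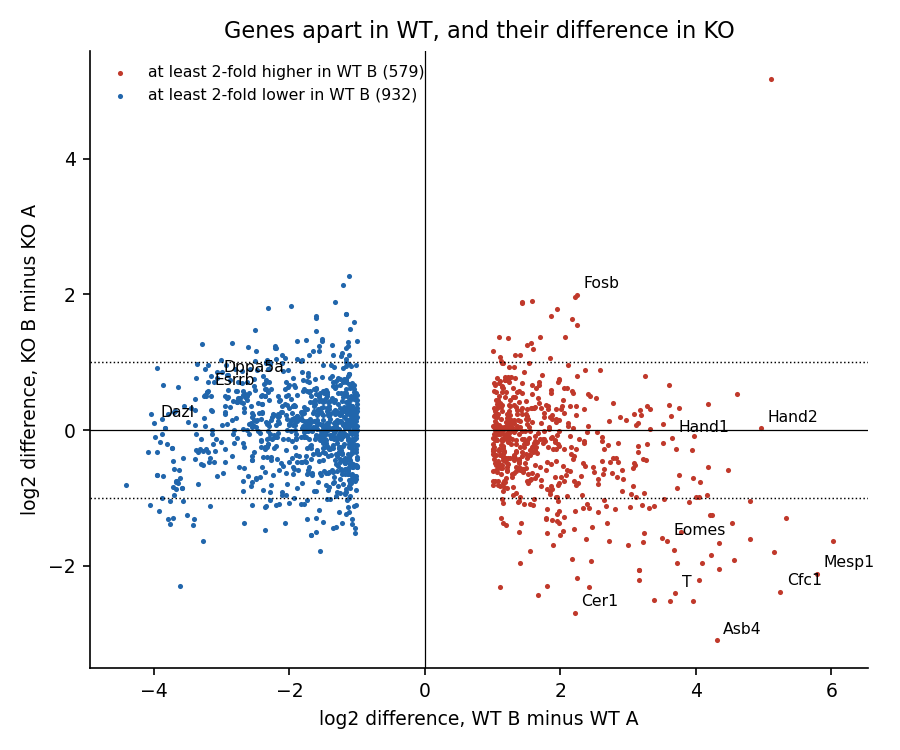
For each gene counted as higher or lower in WT B, the log2 difference between WT samples (x axis) is plotted against that between KO samples, KO B minus KO A (y axis). Points spread around 0 on the y axis, with medians of -0.19 and 0.07.

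Promoter letters were read for the RefSeq entries of 409 genes higher in WT B (518 promoters), 650 lower (823 promoters) and 11419 compared (14594 promoters). The octamer ATGCAAAT, on either strand, was in 2.90% of promoters of higher genes, 2.43% of lower genes and 1.30% of all compared. The T-box sequence TCACACCT was in 0.772%, 1.09% and 0.870%, and the GATA sequence AGATAAG in 2.90%, 1.82% and 2.08%. No motif contains another, and each was counted once per promoter. Promoters of the same gene can overlap and were counted separately, as with the octamer in overlapping windows of Egr2, a gene higher in WT B. Genes in both directions had fewer CpGs than the rest, with medians of 13 and 11 per promoter against 19 over all compared genes. The 33 promoters of the germline list had a median of 19 too, so the 28 of the printed Dazl promoter are above the middle of its list. The Eomes window holds none of the 3 motifs. A match is a description of letters, and no factor's binding was measured there.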

How the data were processed

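The authors deposited 1 table for the 8 RNA-seq libraries, holding unscaled read counts by Ensembl gene identifier, per the file headers. The submitters' processing notes name the build mm9 and DESeq, while the aligner, counter, annotation release and strand setting are not stated in these sources. The peak list of the series was not analysed here, and 0 columns of values went unused. Each pair (1 with 2, 3 with 4) was summed. Scaling was TMM over all 8 libraries with edgeR 4.0.16 in R 4.3.3, and the rest was computed in Python 3.11.15 with pandas 2.3.3, numpy 2.4.6, scipy 1.17.1 and matplotlib 3.10.9. Compared genes had at least 1 CPM in WT A or WT B, and the prior count was 2. No test was run, as each side is 1 sample.

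The gene lists and members were chosen with earlier results of these data known. Named genes are the given markers, Kdr and Ldb1, up to 12 genes with the largest differences in each direction (mean CPM 5 or more), up to 4 counted and 2 abundant uncounted members of each list; the other genes named were chosen after their values were seen. "Nearer" compares log2 of CPM plus 0.1. Symbols matched 20362 genes and a RefSeq table of GRCm38.p6 placed 19332 on a chromosome. Strata of transcript length used the deposited length, in place of the planned protein length, and mitochondrial genes are not reported here. Counts of WT B against WT A were simulated from WT A levels with sampling noise alone, with 200 changed genes among 15527 to 15537 compared. The changed genes had at least 5 CPM in WT A. Of the changes, 100% at 3-fold, 4-fold and 8-fold and 0% at 1.5-fold were called, with 14 to 20 other genes called. Changes at lower levels, where the share of counted genes was largest, were not covered.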

Additional observations from a re-analysis of the deposited data

How the results depend on the processing

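Without the filter on low counts, beyond at least 1 read, 927 genes stood higher and 1620 lower in WT B. With a mean of at least 5 CPM there were 316 and 435, and at 4-fold 181 and 317. Median log2 differences moved to 2.25 for the streak list and -0.11 for blood surface genes without the filter, and to 0.70 for FGF, 1.29 for paraxial mesoderm and 0.33 for epithelial to mesenchymal transition genes at a mean of at least 5 CPM. Under RLE, upper quartile and library size scaling and prior counts of 0.5 and 5, the counts were 550 to 598 higher and 890 to 958 lower, and the median of all genes moved by less than 0.01. Leaving out each library in turn gave 585 to 622 higher and 944 to 967 lower. Direction was checked for the 154 genes named by rule, and none of those counted as higher or lower reversed. The other counted genes were not checked for this. Medians near 0 moved more: neuroectoderm to 0.01 without replicate 1 and 0.03 at a mean of at least 5 CPM, haematopoietic transcription factors to 0.07 without replicate 1, and primed epiblast genes to -0.0031 at a mean of at least 5 CPM. Hoxb4, which was not counted, was at -0.34 without replicate 1 and 0.28 without replicate 2. No paired analysis was possible because both sides are wild type and libraries 1 and 2 share no replicate number with libraries 3 and 4. With 1 sample on each side, counting intervals say nothing of the spread between cultures, and low counts limit genes such as Asz1, Foxf1, Wnt2 and Afp, whose log2 difference was -2.51 without replicate 3 and -4.28 without replicate 4.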

Other observations

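Some abundant genes differed too, at a smaller share than over all genes. Of 2249 compared genes with a mean of at least 100 CPM, 21 stood higher in WT B and 38 lower. Over all 15716 compared genes it was 579 (3.68%) and 932 (5.93%). The genes in this paragraph and the next were chosen after their values were seen. Capn6, a calpain family gene on the X chromosome, was at 18.3 and 16.5 CPM in WT A and at 263.3 and 256.8 CPM in WT B, a fold of 14.9. Amot, an X-linked gene for angiomotin, was at 92.9 and 95.5 CPM against 659.7 and 655.5 CPM, a fold of 6.98. Gpc3, a heparan sulphate proteoglycan gene that is also X-linked, was at 121.2 and 113.5 CPM against 502.9 and 511.9 CPM. In KO A and KO B, Capn6 stood at 23.8 and 11.4 CPM. These X-linked genes stood on the opposite side from the multicopy X-linked genes that were higher in WT A.

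Among the 38 abundant genes lower in WT B were 8 zinc finger genes of chromosome 4, namely Zfp980, Rex2, Zfp600, Zfp987, Zfp985, Zfp534, Gm13212 and Zfp984. Zfp980 was at 396.7 and 388.4 CPM in WT A and at 74.6 and 72.4 CPM in WT B, 5.34-fold higher in WT A (95% interval 5.08 to 5.61, counting error only). Zfp984 was 2.21-fold higher in WT A (2.10 to 2.34), and the other 6 lay between these values. Reads of such related genes may be shared, so they do not count as 8 separate observations. Mt2, a metallothionein, was 6.74-fold higher in WT A (6.21 to 7.32), and Fabp3, a fatty acid binding protein, 5.51-fold (5.16 to 5.89).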
